A study of Saccharomyces cerevisiae with 78 samples.

Results

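The genes described are those that encode the proteins of the cytosolic ribosome of budding yeast, Saccharomyces cerevisiae. They were chosen by name, as the RPL genes of the large subunit, the RPS genes of the small subunit and the RPP genes of the stalk, and a row of the count files was taken when every locus tag in its name belonged to such a gene. This gave 64 rows of 5229 gene rows, of which 20 hold small-subunit proteins, 38 hold proteins of the body of the large subunit and 6 hold proteins of the stalk. All 64 passed the filter on low counts. The rule used names and none of the measured values, although earlier results of these data were known when the members were chosen.

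A ribosome needs close to equal numbers of each of its proteins, and yeast makes most of them from a pair of gene copies on different chromosomes. Transcription of these genes is coordinated by Rap1, Fhl1, Ifh1 and Sfp1 under the TORC1 and protein kinase A pathways, so their mRNAs rise with growth and fall together when nutrients run short or cells are stressed. The pathway is usually studied in glucose, whereas galactose supports slower growth of yeast.

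All libraries came from BY4742, a haploid laboratory strain of mating type alpha, transformed with a plasmid and grown to mid-log phase in SDCGal-Ura, a synthetic galactose medium without uracil that selects for the plasmid. Each of 25 groups carried 1 clone of a fusion gene, here named by its label such as M491-C04, and the control carried the empty plasmid. The fused genes are not named in the labels. Each group had 3 libraries of polyA RNA, 78 in all, which the labels call biological replicates.

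The library names place replicates 1 and 2 of every group in a first set of 52 libraries and replicate 3 in a resubmitted set of 26. Within the resubmitted set, the letter in the library name was A for 12 clones and B or C for the other 13 clones and the control. This letter is read here as a plate row, a term that the library names do not give. Replicate 3 and the resubmitted set therefore cannot be told apart, nor can plate row A and the 12 clones in it. The counts on gene rows ranged from 10415284 to 18048675 per library, with a median of 13540273. The alpha-cell genes MF(ALPHA)1, STE3, SAG1 and MF(ALPHA)2 had 652, 247, 147 and 30.4 CPM (counts scaled by TMM to a common library total) in the control, the a-cell genes STE6, STE2 and BAR1 had 53.7, 19.5 and 10.9 CPM, and the galactose genes GAL1, GAL2, GAL7 and GAL10 had 8250 to 25700 CPM (mean of 3 libraries). In the library name of control replicate 3, a different identifier stands in place of the one shared by control replicates 1 and 2. For M492-E01, both first-set library names give the number of a different clone. The groups follow the sample titles, and only its title places control replicate 3 with the other control libraries.

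Of the 64 rows, 23 carry the locus tag of 1 gene and 41 carry joined tags, mostly of a pair of copies, written here as in RPL15A/RPL15B. The neighbouring rows on the same contig placed 57 rows at 1 locus and 7 rows, among them those of RPS16, RPS6, RPL12, RPL42, RPL27 and RPL8, at a pair of loci. All 23 single-tag rows lay at the locus of their own tag. Among the 34 joined rows at 1 locus, 28 lay at the first tag and 6 at the second, which were RPL21A, RPL23A, RPS30A, RPL7B, RPS9A and RPS17A. These placements rest on the order of neighbours and not on sequence. A joined row is described as 1 row throughout, and of the 137 genes of this kind in the reference table, 48 have no tag in a member row and were not analysed here.

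The members share features that their names do not contain. The locus of 39 of the 64 rows (60.9%) has an intron in the reference annotation, compared with 98 of 5055 single-tag rows of all genes (1.94%). Copies were alike in sequence, and the coding sequences of the 46 rows with a second copy were 78.9% to 99.4% identical to it, with a median of 92.4%. Because only reads with 1 place in the genome were counted, stretches shared by both copies give no counts, so the level of such a row can be understated.

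In the control the median ribosomal protein row had 1312 TMM-scaled CPM per kb of row length, compared with a median of 56.53 CPM per kb over all gene rows. The highest level was that of RPS30B/RPS30A, a small protein of the small subunit, at 3205 ± 540.9 CPM per kb (SD, n = 3). Other high levels were those of RPL36B, at 3035 ± 869.8 CPM per kb, RPS20 at 2993 ± 832.6 and RPS13 at 2794 ± 1530. These 4 levels differed by less than their spread over the 3 control libraries. The lowest levels were those of RPL4B/RPL4A at 48.8 ± 24.1 CPM per kb, RPL7A/RPL7B at 50.9 ± 13.99, RPS6A/RPS6B at 102.8 ± 36.1, RPL8B/RPL8A at 117 ± 53.6 and RPL1A/RPL1B at 131.5 ± 35.1. Each of these 5 belongs to a pair of copies, and the part of uniquely placed reads in their levels was not tested. Row length matched the reference coding length in 54 of the 64 rows, was shorter in 7 and longer in 3. The 3 longer rows were RPL7A/RPL7B (1272 against 735 bases), RPS6A/RPS6B (2178 against 1422) and RPL8B/RPL8A (1626 against 1542). A longer row length lowers a level per kb, and the part of it in these levels was not tested.

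The ribosomal protein rows took a larger share of the counts in the resubmitted set than in the first set in every group. In the control the share of gene-row counts on the 64 rows was 3.66% and 3.31% in replicates 1 and 2 and 5.92% in replicate 3, a mean of 4.3% ± 1.41 (SD, n = 3). Over all groups the share ran from 2.9% to 4.68% in the first set, with a median of 3.77%, and from 3.92% to 6.57% in the resubmitted set, with a median of 5.6%. The ratio of the resubmitted share to the mean first-set share was 1.08 to 1.45 in the 12 clones of plate row A, with a median of 1.29. In the 14 groups of rows B and C it was 1.15 to 1.94, with a median of 1.68. The lowest ratio in rows B and C was that of M495-F02 and the highest that of M491-F10. In bulk RNA, fewer cells with ribosomal protein mRNA and less of it per cell cannot be told apart.

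**Figure D1:**
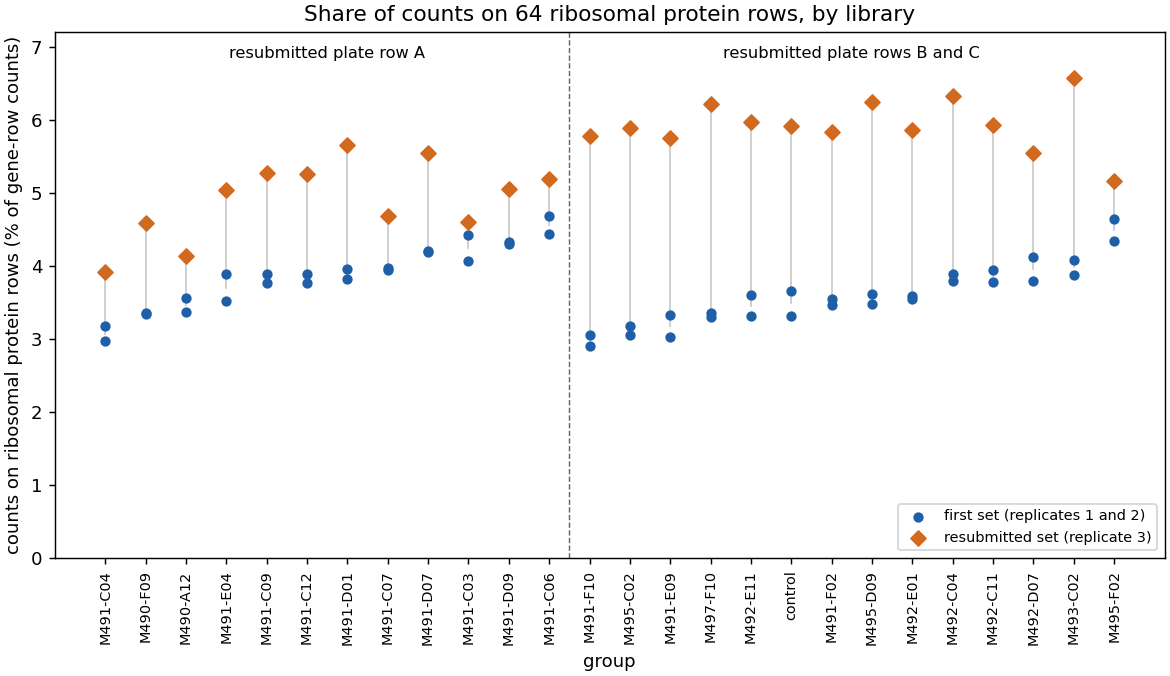
Share of gene-row counts on the 64 ribosomal protein rows (vertical axis, %) in each of 78 libraries, by group, with circles for the 2 libraries of the first set, diamonds for the resubmitted library and a grey line from the first-set mean to the diamond. The diamond lies above both circles in all 26 groups, and the diamonds of row A (3.92% to 5.65%) lie lower than most of those of rows B and C (5.17% to 6.57%).

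The rise was shared by small-subunit, large-subunit and stalk rows. In an edgeR quasi-likelihood fit over all gene rows, with terms for group and library set, 62 of 64 rows were higher in the resubmitted set and 0 were lower, where 41.4% of all rows tested were higher and 43.2% lower. The median log2 fold change between sets was 0.58 over the 64 rows and -0.0079 over all rows. By subunit, 19 of 20 small-subunit rows, 37 of 38 rows of the large-subunit body and 6 of 6 stalk rows were higher, with median log2 fold changes of 0.66, 0.56 and 0.53. Replicate number and library set are the same division of the libraries, so these differences describe the sets and no treatment.

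The largest shift belonged to RPL6A/RPL6B, a protein of the large subunit. Its level was 386 to 600 CPM in the first set (median 458) and 704 to 1133 CPM in the resubmitted set (median 1025), and the sets did not overlap. The log2 fold change was 1.09 (SE 0.032, edgeR adjusted p = 1.497e-36). RPL9A/RPL9B, another large-subunit pair, ran from 92.7 to 238 CPM (median 155) and then from 176 to 413 CPM (median 326), so its sets overlapped, although all 26 groups had a resubmitted value above both of their own first-set values. Its log2 fold change was 1.07 (SE 0.058, edgeR adjusted p = 2.416e-24). Another large shift was that of RPL31B/RPL31A, with a log2 fold change of 0.91 (SE 0.046, edgeR adjusted p = 6.176e-26). This pair had 149 to 279 CPM in replicates 1 and 2 and 279 to 542 CPM in replicate 3, so the sets met at their edges.

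RPL39 and RPS21B/RPS21A were the exceptions. RPL39, a very short protein that lines the exit tunnel for nascent chains, had 261 to 444 CPM in the first set (median 323) and 205 to 640 CPM in the resubmitted set (median 321). Its log2 fold change between sets was -0.050 (SE 0.058, edgeR adjusted p = 0.4217). RPS21B/RPS21A, a small-subunit pair, had 340 to 603 CPM (median 427) and 308 to 591 CPM (median 419), with a log2 fold change of -0.054 (SE 0.043, edgeR adjusted p = 0.2383). Both sets overlapped almost fully for these 2 rows, and in each row the resubmitted value was above both first-set values in 9 groups. It was below both in 15 groups for RPL39 and in 13 for RPS21B/RPS21A.

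The stalk is the flexible arm of the large subunit that recruits the GTPase translation factors, and its rows did not shift alike. RPP0, the base of the stalk, went from 950 to 1536 CPM in the first set (median 1191) to 1696 to 2533 CPM in the resubmitted set (median 2333). Its log2 fold change was 0.90 (SE 0.032, edgeR adjusted p = 6.452e-33), and the sets did not overlap. RPL12A/RPL12B, which encodes the protein that sits beside the stalk base, had a log2 fold change of 0.80 (SE 0.037, edgeR adjusted p = 2.294e-27). The acidic proteins that form dimers on RPP0 shifted less. Their log2 fold changes were 0.66 for RPP2A, 0.40 for RPP2B, 0.40 for RPP1B and 0.24 for the joined row RPP1A/RPP2B, with SEs of 0.035 to 0.038 and edgeR adjusted p-values from 5.544e-23 to 1.232e-08. The difference in shift between stalk rows was not itself tested.

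RPL40B/RPL40A, whose protein is made as a fusion with ubiquitin, was the row found for the ubiquitin-fusion genes. It went from 563 to 887 CPM in first-set libraries to 703 to 1211 CPM in resubmitted ones, with a log2 fold change of 0.41 (SE 0.044, edgeR adjusted p = 1.499e-12). Among the genes known to control their own mRNA, RPL22B is present in the joined row RPL22B/RPL22A, which lay at the RPL22B locus. That row went from 72 to 133 CPM to 109 to 165 CPM, with a log2 fold change of 0.43 (SE 0.041, edgeR adjusted p = 3.946e-14).

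The shift was larger in the groups of plate rows B and C than in those of row A. In the first set the median share of gene-row counts was 3.89% in the row A clones and 3.57% in the groups of rows B and C. In the resubmitted set it was 5.05% and 5.9%, so the groups differed in both sets, in opposite directions. In row A, 52 of 64 rows were higher in the resubmitted set and 3 lower, with a median log2 fold change of 0.37, where 38.6% of all rows were higher and 39.5% lower. In rows B and C all 64 were higher, with a median of 0.76, where 39.8% of all rows were higher. Tested directly as an interaction, the shift in rows B and C exceeded that in row A in 63 of 64 rows, with a median difference of 0.38 on the log2 scale, and 26% of all rows differed in that direction while 23.2% differed in the other. The remaining row, RPL22B/RPL22A, had a difference of 0.16 (SE 0.080, edgeR adjusted p = 0.1029).

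The largest difference between plate rows was that of RPS26B/RPS26A, a small-subunit protein at the mRNA exit channel. Its resubmitted level had a minimum of 264 CPM and a median of 378 CPM in row A, and a minimum of 385 CPM and a median of 523 CPM in rows B and C, against 163 to 377 CPM over the first set. The difference of its shifts was 0.66 on the log2 scale (SE 0.076, edgeR adjusted p = 9.856e-11). RPL9A/RPL9B followed with 0.63 (SE 0.084) and RPS12 with 0.60 (SE 0.067). RPS12 had a resubmitted level of 728 to 1198 CPM in row A and 1020 to 1428 CPM in rows B and C. RPL39 was lower in the resubmitted set in row A, with a log2 fold change of -0.33 (edgeR adjusted p = 3.469e-05), and higher in rows B and C, with 0.17 (edgeR adjusted p = 0.01035).

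**Figure D2:**
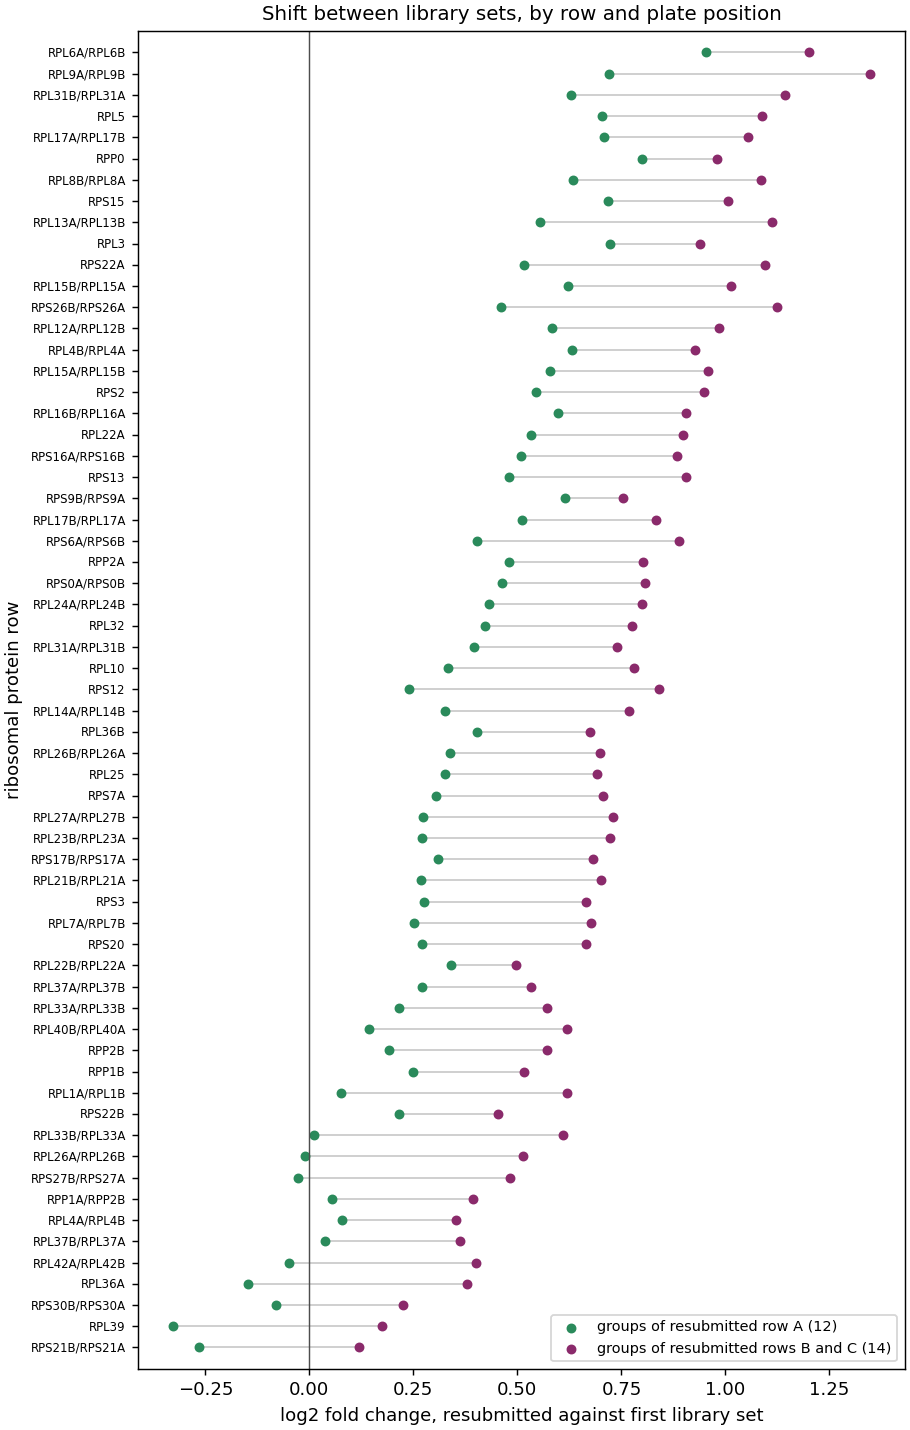
Log2 fold change of 62 of the 64 ribosomal protein rows between the resubmitted and the first library set (horizontal axis), fitted for the 12 groups of plate row A (green) and the 14 groups of rows B and C (purple), with rows ordered by the shift over all groups. Purple points lie to the right of green points in every row drawn, and the medians over all 64 rows are 0.76 and 0.37.

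Row length and the shift moved together. Over the 64 rows the Spearman correlation between the log2 fold change between sets and log2 row length was 0.469, and over the 5148 other rows tested it was 0.362. These rows share the same libraries and depth, and the values are descriptions. The 8 member rows under 300 bases had a median log2 fold change of 0.23, the 36 rows from 300 up to 600 bases had 0.58 and the 20 rows of 600 bases or more had 0.72. Other gene rows in the same length classes had medians of -0.47 (n = 9), -0.21 (n = 728) and 0.020 (n = 4411), each below the median of the members of like length. The part of length in the shift was not tested. The 39 rows with an intron had a median log2 fold change of 0.53 and the 25 without had 0.79.

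Other genes of cytosolic translation moved in the same direction between sets. Of 35 rows for translation factors, 32 were higher and 1 lower in the resubmitted set, with a median log2 fold change of 0.47, where 41.4% of all rows were higher and 43.2% lower. YEF3, the fungal elongation factor that clears the exit site of the ribosome, had the largest log2 fold change, 1.26 (SE 0.056, edgeR adjusted p = 3.223e-28). TEF1/TEF2, the elongation factor that delivers aminoacyl-tRNA, had 0.93, and PAB1, the poly(A)-binding protein, had 0.92. STM1, which binds idle ribosomes, had 0.55. Of 16 rows for dedicated chaperones and assembly factors of ribosomal proteins, 14 were higher and 2 lower against the same 41.4% and 43.2%, with a median of 0.31. RRB1, the chaperone of Rpl3, rose by 1.07, and SYO1, the importer of Rpl5 and Rpl11, by 0.86 on the log2 scale. PUF6, an assembly factor that binds Rpl43, rose by 0.75, and SQT1, the chaperone of Rpl10, by 0.72. The 2 lower rows were BTT1, a subunit of the nascent-chain complex, at -0.71, and LOC1 at -0.15.

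Of 21 rows for regulators of ribosomal protein genes, 14 were higher and 4 lower in the resubmitted set, beside 41.4% and 43.2% of all rows, with a median log2 fold change of 0.20. Their shift was not tested against that of the members. The largest were UTP22, a member of the CURI complex with Ifh1, at 0.52, the repressor TOD6 at 0.51 and the TORC1 target kinase SCH9 at 0.51. IFH1 and FHL1, whose products sit on the promoters of these genes, had log2 fold changes of 0.041 (edgeR adjusted p = 0.1263) and -0.035 (edgeR adjusted p = 0.1033). The 4 lower regulators were FPR1 at -0.30, HMO1 at -0.18, CBF1 at -0.15 and ESA1 at -0.10. The 69 rows of mitochondrial ribosomal protein genes, which belong to a separate ribosome, divided evenly into 30 higher and 30 lower, close to the 41.4% and 43.2% of all rows, with a median of -0.00085. Their shift differed between plate rows in 7 rows, 5 larger and 2 smaller in rows B and C, compared with 63 of the 64 cytosolic rows and 49.3% of all rows. The difference was not particular to the cytosolic members. Of the 16 chaperone rows, 15 had a larger and 1 a smaller shift in rows B and C, with a median difference of 0.41. Among the 35 translation factor rows 29 were larger and 2 smaller, with a median of 0.28, and among the 21 regulators 4 were larger and 7 smaller.

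Against the control, few ribosomal protein rows passed the test in any clone. Over 25 clones and 64 rows, 27 of 1600 comparisons passed an adjusted p of 0.05, 19 higher and 8 lower in the clone, and 99 had an unadjusted p under 0.05. That is 1.69% of the comparisons, whereas 10.6% of the comparisons over all rows passed in the same 25 contrasts. All 25 contrasts share the 3 control libraries. The spread left after fitting group and set was larger for the members, with a median SD of 0.168 on the log2 scale compared with 0.101 over all rows. Between replicates 1 and 2, which lie in the same set, the median SD was 0.0651 for the members and 0.0685 over all rows.

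Within the first set alone, many more comparisons passed. There 710 of 1600 comparisons (44.4%) passed, 569 higher and 141 lower in the clone, where 24.8% of those over all rows did. In 9 clones at least 32 of the 64 rows were higher than in the control, led by M491-D07 and M491-D09 with 60 rows each, and by M491-C06 and M491-C07 with 59 each. Of all rows, 32.5%, 34.9%, 43.4% and 48.2% were called in these 4 clones in that order, in either direction. In 1 clone, M491-F10, 52 rows were lower, where 39.8% of all rows were called. The median log2 fold change ran from -0.24 in M491-F10 to 0.35 in M495-F02. The first-set library names also carry a letter, E for the control and M497-F10 and A to D for the other clones. Position in the first set and clone therefore cannot be told apart.

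The single resubmitted libraries often went the other way. The median log2 difference of the 64 rows from the control had the opposite sign to that of the first set in 13 of 25 clones, 9 of the 12 in row A and 4 of the 13 in rows B and C. The control library of that set lay in rows B and C, where the shift between sets was larger, and the resubmitted share was below that of the control in 19 of 25 clones, among them all 12 of row A. In M491-D09, for example, the share was 4.33% and 4.3% in replicates 1 and 2 and 5.05% in replicate 3, against 3.66%, 3.31% and 5.92% in the control. The clone was thus above the control in one set and below it in the other. Plate row and clone cannot be told apart in the resubmitted set. A fit with the plate rows as separate batches called 152 comparisons, for which no share over all rows is given here.

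**Figure D3:**
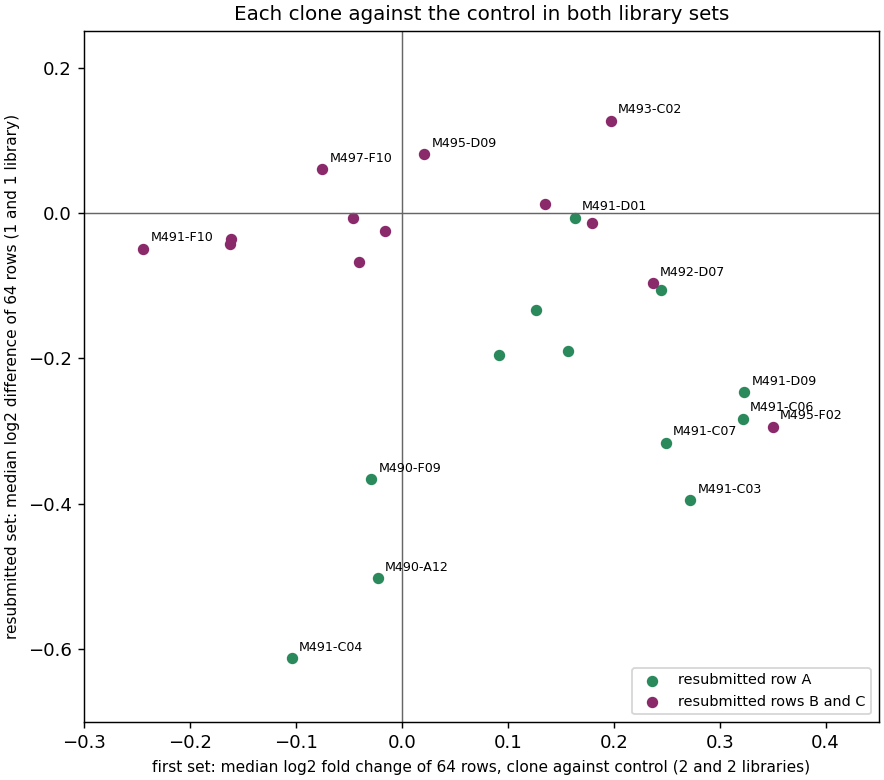
Median log2 fold change of the 64 ribosomal protein rows against the control, for each of 25 clones, in the first set (horizontal axis, 2 clone and 2 control libraries) and in the resubmitted set (vertical axis, 1 and 1 library), coloured by plate row. All 12 clones of row A lie below 0 on the vertical axis, and 13 of 25 clones have opposite signs in the sets.

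The clones with the most rows called were M491-C06 and M495-F02, with 7 rows higher each, and M491-C04, with 6 rows lower. In M491-C06, 11.4% of all rows were higher, in M495-F02 25.6%, and in M491-C04 6.93% of all rows were lower. Out of 64 rows, the counts in M491-C06 and M491-C04 were thus close to the background, and that in M495-F02 was below it. No clone had 10 rows called, so these clones were picked after their values were seen. Further calls were RPL3 and RPL22B/RPL22A higher in M491-C07, RPL3 and RPP0 higher in M491-D09, RPL31B/RPL31A lower in M490-A12 and M490-F09, and RPL1A/RPL1B higher in M492-C11. The share of all rows called in these contrasts was 24.1% in M491-C07, 13.2% in M491-D09, 22.4% in M490-A12, 16.1% in M490-F09 and 0.0384% in M492-C11. The calls in M491-C07 and M491-D09 were lost without replicate 1 or 2 of the control or of the clone, and those in M491-D09 also without control replicate 3. The other 17 clones had 0 rows called by edgeR.

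In M491-C06 the largest change was that of RPL15A/RPL15B, a core protein of the large subunit. Its levels were 827, 757 and 889 CPM in the clone and 415, 398 and 846 CPM in the control. Both first-set values of the clone lay far above those of the control, while the resubmitted values were close, so the groups overlapped. The log2 fold change was 0.69 (SE 0.126, edgeR adjusted p = 4.55e-05), with 0.96 in the first set alone and 0.071 between the single resubmitted libraries. The row at the other locus, RPL15B/RPL15A, had a log2 fold change of 0.53 (SE 0.124, edgeR adjusted p = 0.00116). RPL5, which binds 5S rRNA, had 0.53, RPL3, at the peptidyl transferase centre, had 0.49, RPS20 had 0.44, RPS2 had 0.38 and RPP0 had 0.33. Leaving out 1 control or clone library left between 4 and 11 of the 64 rows called: 4 without control replicate 2 or without either first-set library of the clone, and 11 without its resubmitted library.

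In M495-F02 the 7 rows were RPL7A/RPL7B, RPL4B/RPL4A, RPL22B/RPL22A, RPL24A/RPL24B, RPP2B, RPL37A/RPL37B and RPP1A/RPP2B, with log2 fold changes of 0.30 to 0.47. RPL7A/RPL7B, a large-subunit pair, had 76.9, 76.6 and 115 CPM in the clone and 55.9, 53.1 and 85.2 CPM in the control. It was higher in the clone in both sets, with log2 differences of 0.49 and 0.43, and was the 1 row of the 7 that was higher in the resubmitted library. The log2 fold change was 0.47 (SE 0.131, edgeR adjusted p = 0.00203). Of all rows, 50.3% were called in either direction in this clone, so 7 of 64 lay below the background. Without clone replicate 1 the count was 2, without clone replicate 2 it was 1 and without clone replicate 3 it was 23. It was 3 without control replicate 1 and 2 without control replicate 2.

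In M491-C04 the rows RPL31B/RPL31A, RPS22A, RPL33B/RPL33A, RPL22A, RPL12A/RPL12B and RPL15B/RPL15A were lower, with log2 fold changes of -0.55 to -0.35. RPL33B/RPL33A had 139, 154 and 139 CPM in the clone and 183, 162 and 278 CPM in the control, without overlap. Its log2 fold change was -0.49 (SE 0.169, edgeR adjusted p = 0.0407). RPS22A, a small-subunit protein, had 239, 260 and 344 CPM against 320, 274 and 697 CPM, so its resubmitted value lay inside the control range. Its log2 fold change was -0.51 (SE 0.18, edgeR adjusted p = 0.0445). The resubmitted library of this clone lay in plate row A, away from that of the control, and with plate rows as batches the calls of RPS22A, RPL22A, RPL12A/RPL12B and RPL15B/RPL15A were lost, with edgeR adjusted p-values of 0.0505 to 0.0820. Against the mean of the other 25 groups, 39 rows were lower in this clone, where 15.3% of all rows were called in either direction. This count fell to 13 without clone replicate 1 and to 1 without clone replicate 3, and that against the control fell to 1 without clone replicate 1, to 3 without control replicate 1 and to 0 without replicate 3 of either group.

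RPL31B/RPL31A was the row called lower in the most clones. It had 238, 211 and 530 CPM in the control, 167, 178 and 280 CPM in M490-A12, 179, 182 and 322 CPM in M490-F09 and 167, 183 and 279 CPM in M491-C04. Each clone lay below the control within each set, yet overlapped it over all 3 libraries. The log2 fold changes were -0.57, -0.46 and -0.55, with edgeR adjusted p-values of 0.0077, 0.0399 and 0.013. The resubmitted libraries of all 3 clones lay in plate row A, and with plate rows as batches the call in M490-F09 was lost (edgeR adjusted p = 0.0778). All 3 calls were lost without replicate 3 of the control or of the clone, and that in M490-F09 was also lost without control replicate 1 and without either other library of the clone.

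No ribosomal protein row passed when the control was compared with the 25 clones on average. By edgeR 0 of 64 rows passed, where 6.33% of all rows did, and 0 had an unadjusted p under 0.05; DESeq2 also called 0. In the first set alone 21 rows passed, all higher in the clones, where 25.8% of all rows passed in either direction. The median log2 fold change of the 64 rows was 0.014. Of the regulators, RAP1 was lower in the clones, with a log2 fold change of -0.15 (edgeR adjusted p = 0.004573), and CRF1, a co-repressor of these genes, was higher, with 0.22 (edgeR adjusted p = 0.01335). RAP1 had 141, 136.6 and 161.9 CPM in the control, and CRF1 had 34.3, 39.1 and 37.4 CPM. Of the translation factors, ANB1/HYP2, the row of the hypoxic form of eIF5A, was lower by -0.73 (edgeR adjusted p = 4.663e-05).

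In the test across all 26 groups, 31 of 64 rows passed, compared with 83.2% of all rows. The count was 24 to 44 when 1 library was left out, and the median range of group means was 0.50 on the log2 scale for the members and 0.465 over all rows. Among the rows that passed, RPL1A/RPL1B had the widest range, 1.87, followed by RPL15A/RPL15B with 0.99, RPL15B/RPL15A with 0.88, RPL7A/RPL7B with 0.84, RPL5 with 0.84, RPL9A/RPL9B with 0.81, RPS22A with 0.72 and RPL4B/RPL4A with 0.65. M491-C04 was the lowest group in 7 of these 8 rows, the exception being RPL7A/RPL7B, where it was M490-F09. M491-C06 was the highest group for both RPL15 rows, RPL5 and RPL9A/RPL9B, and M495-F02 for RPL7A/RPL7B and RPL4B/RPL4A.

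RPL1A/RPL1B stood apart from the other members in 1 clone. The gene encodes the mobile L1 stalk protein, which helps deacylated tRNA leave the ribosome, and the row lay at the RPL1A locus. In M492-C11 it had 208, 240 and 279 CPM, a mean of 242 ± 35.6 (SD, n = 3). In the other 75 libraries it had 58.1 to 132 CPM, with a median of 79.4, so every library of this clone lay above all others. Against the other groups the log2 fold change was 1.57 (SE 0.0993, edgeR adjusted p = 1.49e-18), and against the control it was 1.51 (SE 0.166, edgeR adjusted p = 5.73e-09). It held in each set, with log2 differences from the control of 1.62 (first) and 1.31 (resubmitted). This contrast called 2 of 5212 rows in all, and no other member row. RPL1A/RPL1B was the 1 member row with a log2 fold change of 1 or more against the other groups and no overlap with them, and whether the plasmid of M492-C11 carries RPL1 sequence was not tested.

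**Figure D4:**
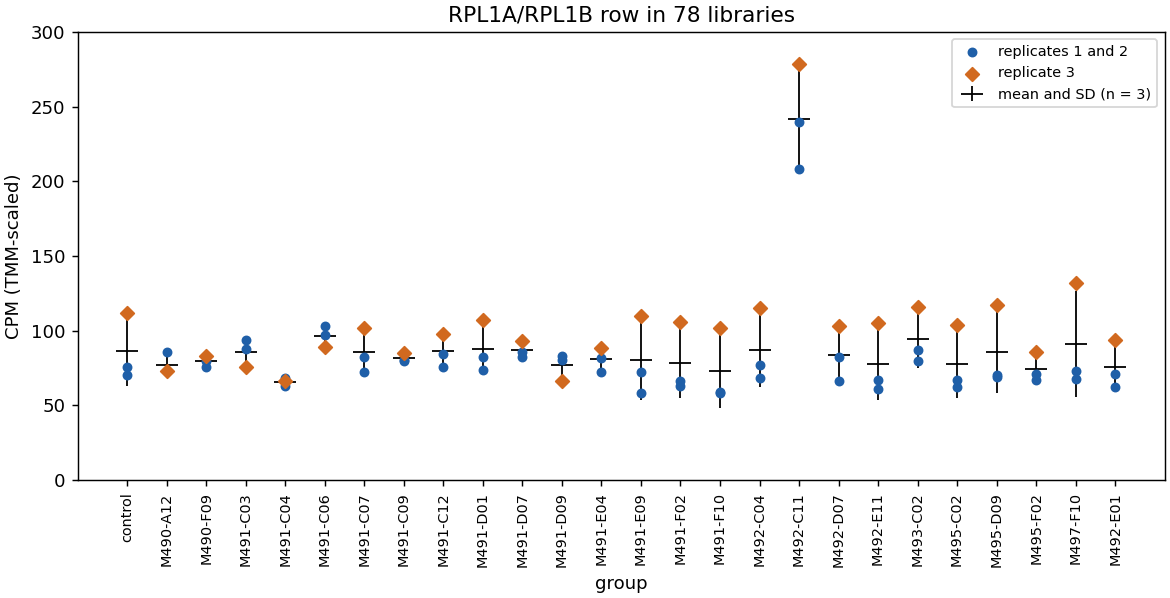
Level of the RPL1A/RPL1B row (vertical axis, CPM) in each of 78 libraries, by group, with circles for replicates 1 and 2, diamonds for replicate 3 and bars for the mean and SD of the 3. The 3 libraries of M492-C11 lie at 208, 240 and 279 CPM, above the 75 others at 58.1 to 132 CPM.

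For 10 pairs of copies each copy had a row of its own, so that their balance could be followed as a ratio of counts per kb within a library, which does not depend on scaling between libraries. In the control the most unequal pair was RPL36, where copy B exceeded copy A by 5.28-fold, with log2 ratios of copy A over copy B of -2.35, -2.33 and -2.52. RPL22 was unequal the other way, with copy A above copy B by 4.47-fold and log2 ratios of 2.1, 2.14 and 2.24. RPL4 had log2 ratios of 1.74, 1.78 and 1.06, a mean of 1.53 ± 0.41 (SD, n = 3), and RPL33 a mean of 1.21 ± 0.083. The longest stretch shared by the copies is 422 bases in RPL4, so its ratio is the least certain of these.

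No balance turned over in the group means, where copy A stayed above copy B in 7 pairs and below it in RPL36, RPL26 and RPL37, although single libraries of RPL37 crossed equality, from -0.54 to 0.28 on the log2 scale. Over all 3 libraries the group means varied most for RPL22, by 0.45 on the log2 scale, from 1.77 in M495-F02 to 2.23 in M491-F02. Close to it were RPS22 with a range of 0.45, RPL31 with 0.45, RPL37 with 0.42 and RPL33 with 0.42. Over the first set alone the range was widest for RPL4, at 0.56, followed by RPL22 at 0.44. The pooled SD within a group was 0.23 for RPL22, 0.30 for RPS22, 0.22 for RPL31, 0.15 for RPL37 and 0.098 for RPL33. For RPL33 the lowest group mean was 1.13 ± 0.038 in M495-F02 and the highest 1.54 ± 0.085 in M490-F09.

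The copies of a pair also shifted unequally between library sets. The log2 ratio was lower in the resubmitted library than the mean of the first set in 26 of 26 groups for RPL4 (mean difference -0.57), RPL36 (-0.41) and RPL26 (-0.26). It was higher in 26 of 26 groups for RPS22 (mean difference 0.48) and RPL17 (0.21). In RPL31 it was higher in 1 of 26 groups, with a mean difference of -0.33. Copies of RPL4, RPL36, RPS22, RPL17 and RPL31 have rows of equal length, whereas the RPL26 rows measure 384 and 234 bases.

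**Figure D5:**
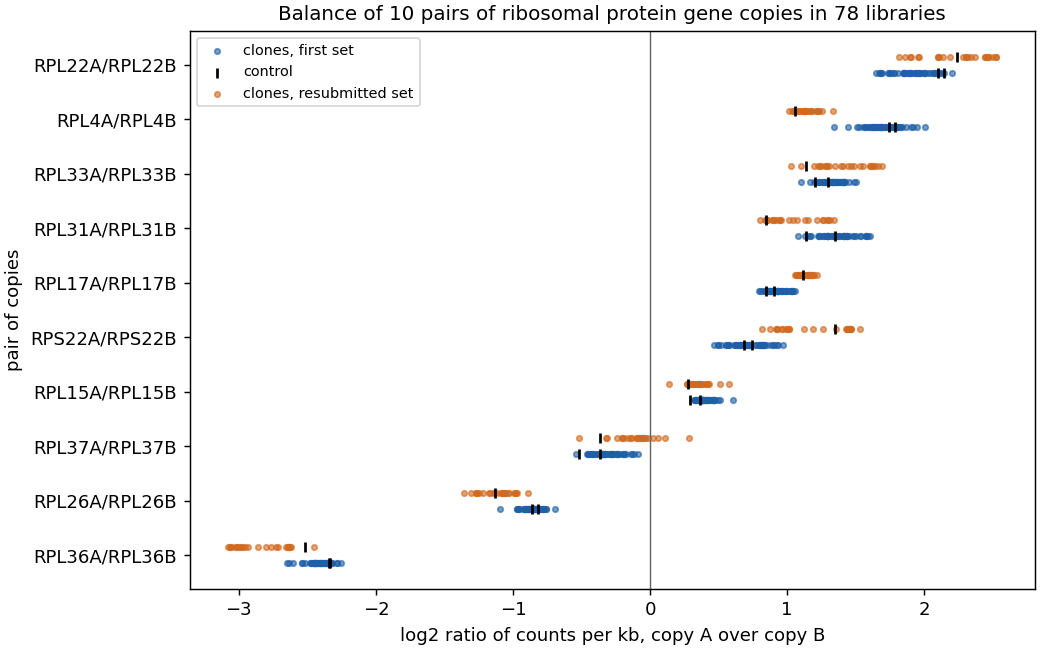
Log2 ratio of counts per kb of copy A over copy B (horizontal axis) for 10 pairs of ribosomal protein gene copies in 78 libraries, with blue points for clone libraries of the first set, orange points for the resubmitted set and black ticks for the control. RPL36 lies near -2.4 and RPL22 near 2.16 in the control, and the orange points of RPL4 and RPL36 lie left of most blue points while those of RPS22 and RPL17 lie right.

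The members rose and fell together over the groups within a set. Over the 26 groups of the first set, the median Pearson correlation between pairs of member rows was 0.9, and 97.2% of 2016 pairs were over 0.5. Pairs of other rows had a median of -0.0043, with 7.3% over 0.5. In the 26 resubmitted libraries the median over pairs of members was 0.82. These values describe rows that share libraries and scaling. In the first set 63 of the 64 rows had a correlation over 0.5 with the mean of the other members, and the lowest was 0.461 for RPL1A/RPL1B, whose highest value is that of M492-C11. Over the 25 clones together the order was not shared between sets. The Spearman correlation between the first-set and resubmitted medians was -0.244 (Pearson -0.154). Among the 12 clones of row A it was 0.287 (Pearson 0.512), and among the 13 of rows B and C it was -0.0165 (Pearson -0.306).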

How the data were processed

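PolyA RNA of 78 libraries was sequenced. The files hold whole-number counts per gene, not normalized, as the authors deposited them. Per the submitters' processing notes and the series' design text, the tools were fastp 0.23.1 for trimming and removal of duplicates by molecular identifier, STAR 2.5.2b for alignment and featureCounts of Subread 1.5.2 for counting reads with a unique hit. The notes name build R64, but per the file headers the rows are on contigs that R64 does not have, so R64 gave only gene names, coding lengths, introns and the identity of copies, and no coordinates or sequences are given. The 2 rows that name no gene were left out, a row of unassigned tags with 2.18% to 2.66% of the gene-row total and a construct row with 0.0955% to 2.69%.

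The members and lists were chosen with earlier results of these data known. With edgeR 4.0.16 in R 4.3.3, counts were filtered (filterByExpr, minimum count 10), scaled by TMM and fitted with group and library set as terms over all 78 libraries (51 residual degrees of freedom), and quasi-likelihood tests were adjusted by Benjamini-Hochberg over all 5212 rows tested at 0.05. The interaction of set and plate row was added after the data were seen. Levels are TMM-scaled CPM. Errors are the spread between libraries, to which counting adds most in the lowest rows. The fit was tested on simulated counts with a fixed spread and a shift between sets shared by all groups. No difference between plate rows was simulated, so that test does not cover it.

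Alternatives were a replicate block, no set term, plate rows as batches, the first set alone, RLE size factors, TMM without the member rows, no filter, DESeq2 1.42.0 and each library left out. Rows were named by rule: the 8 widest group ranges past 0.05, the 4 largest set shifts, 5 highest and lowest levels, 5 most variable and 4 most unequal pairs, rows at least 1 log2 unit above the other groups with a lowest value above all other libraries, up to 4 rows of each other list, and always the stalk, ubiquitin-fusion and self-regulated genes. The values of 2 member rows are not reported here, though all counts and medians include them. For same-numbered libraries, the correlation of deviations over 75 pairs of a clone and the control ran from -0.604 to 0.636, with a median of -0.0374. These values had no common direction, and they cannot exclude a source shared by some same-numbered libraries.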

Additional observations from a re-analysis of the deposited data

Results flagged for a closer look

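The change between library sets was unequal in the groups of resubmitted plate rows B and C and in those of row A. An interaction term in the edgeR fit called this difference in 63 of 64 ribosomal protein rows, all larger in rows B and C, where 49.3% of all rows were called. The rows with the largest difference on the log2 scale were RPS26B/RPS26A (0.66), RPL9A/RPL9B (0.63) and RPS12 (0.60). Plate row and the clones in it cannot be told apart. Groups of 3 libraries were too small for a check of single outlying libraries.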

How the results depend on the processing

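Leaving out any 1 library left 61 to 62 rows higher in the resubmitted set, and RLE size factors, TMM without the member rows, no filter and DESeq2 kept the call of each of the 64 rows between sets. Among alternatives chosen after seeing the data, the difference between plate rows was called in 62 rows with RLE size factors or without control replicate 3, in 63 with TMM factors from the other rows and in 64 without M495-F02. The set alone in rows B and C called 63 rows, and in row A 56, of which 52 were higher and 4 lower.

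Calls of clones against the control rested on how the sets were treated. With the replicate block, which has the replicate number in place of the set, 25 comparisons passed in place of 27, and M491-D09 had 1 row called in place of 2. The block changed no other count by more than 1.5 times, and whether same-numbered libraries share a source beyond the set is not known. With no set term, 1 comparison passed in 1 clone, RPL1A/RPL1B in M492-C11, and 0 in M490-A12, M490-F09, M491-C04, M491-C06, M491-C07, M491-D09 and M495-F02. In that fit 1 row passed across all groups. Against the other groups 3 comparisons passed, 0 of them in M491-C04, where the main fit called 77 over the 25 clones, 24 higher and 53 lower. No share of all rows called is given for the fit without a set term or for these 77. Those counts are therefore not read against the background. With plate rows as batches, 152 comparisons passed in 13 clones, with 29 rows in M491-C06, 30 in M491-D09, 15 in M491-C07, 15 in M495-F02, 2 in M491-C04 and 0 in M490-F09, and 62 rows passed across all groups and 250 comparisons against the other groups. No share of all rows called is given for this fit, so its counts are not read against the background. In the first set alone, 710 comparisons passed in 23 clones, with 11 rows in M490-A12, 10 in M490-F09, 17 in M491-C04, 59 in M491-C06, 59 in M491-C07, 60 in M491-D09, 30 in M492-C11 and 57 in M495-F02. Of all rows, 33.1%, 29.7%, 31.5%, 43.4%, 48.2%, 34.9%, 7.29% and 64.2% were called in these clones in that order, in either direction. There 21 rows passed for the mean of the clones, 64 across all groups and 959 comparisons against the other groups. Over all rows, 24.8% of the first-set comparisons with the control passed, and 25.8% for the mean of the clones. For the first-set counts across all groups and against the other groups no such share is given. The cause of the differences between these settings was not tested.

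Smaller changes came from the scaling, filter and tool. M490-A12 had 3 rows called with RLE size factors and 4 with DESeq2. M490-F09 had 3 with RLE size factors, TMM without the member rows, no filter or DESeq2. M491-D09 had 0 with RLE size factors and 1 with TMM without the member rows or no filter. Leaving out 1 library gave 9 to 53 comparisons against the control, in 5 to 7 clones, 22 to 112 against the other groups and 1 to 29 rows in M491-C04 there. By clone the ranges against the control were 0 to 4 rows in M490-A12, 0 to 2 in M490-F09, 0 to 8 in M491-C04, 4 to 11 in M491-C06, 0 to 5 in M491-C07, 0 to 3 in M491-D09 and 1 to 23 in M495-F02. The mean share in the control was 3.49% to 4.79% when 1 library was left out. None of the 27 clone calls reversed under the alternatives run, nor did any set shift under the 4 named first. No alternative was run for single rows of the other lists or for single differences between plate rows. Counting error weighs most on the lowest rows, such as RPL4B/RPL4A at 33.6 to 87.6 CPM.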
